A study of Mus musculus with 12 samples.

Results

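The complement genes of the mouse jejunum were followed across 4 groups of mice: 34 listed components and regulators, of which 32 had a probe set named for that gene alone on the array, among 19938 such genes and 35556 probe sets in all. C3 and Cfd were not analysed here, because no probe set was named for either in the probe annotation used. The study's own list of changed genes does hold a C3 probe set, as higher after CBDL in A/J. Each of the other members was read from its brightest probe set with that single gene name. The mice were 8-week-old males of 2 inbred strains, A/J and C57BL/6J (B6), and the groups were A/J after common bile duct ligation (CBDL), A/J after sham operation, B6 after CBDL and B6 after sham operation, with 3 arrays in each. CBDL closes the duct that carries bile into the gut, and sham mice were operated on with the duct left alone. The jejunum was taken on day 7 and its total RNA hybridised. Values are log2 signals, so a difference of 1 is a 2-fold change in signal. A gene was called where its p from limma, adjusted over all probe sets, was under 0.05. The arrays are described as separate samples, and whether each came from its own mouse is not stated, so the p-values measure the spread between these arrays.

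Complement is a set of plasma and membrane proteins that tag microbes and damaged cells and can pierce their membranes. C1q, the mannose-binding lectins and the ficolins recognise a surface, their proteases cleave C4 and C2 to build a C3 convertase, the alternative pathway amplifies it through factor B, and C5 to C9 then form the membrane attack complex. Hepatocytes secrete most of the plasma components, macrophages make much of the C1q, and the gut epithelium makes some components of its own. A/J mice are known to carry a defective Hc gene, which encodes C5, and lack C5 in their plasma.

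Array medians lay between 5.36 and 5.51. The jejunal label fitted its markers, with 11 of 11 measured markers of the jejunal epithelium above the median probe set and a mean signal of 11.88 to 12.03 on every array. Of 22 measured hepatocyte markers, all 22 were above the array's median on each A/J CBDL array, 5 to 8 in A/J sham, 21 on each B6 CBDL array, and 17, 19 and 22 on B6 sham replicates 1, 2 and 3. Their mean signal was 8.51 to 9.05 in A/J CBDL, 5.34 to 5.80 in A/J sham, 8.54 to 8.85 in B6 CBDL, and 6.54, 7.32 and 8.55 on B6 sham replicates 1, 2 and 3. B6 sham replicate 3 therefore had hepatocyte markers at the level of the CBDL arrays, and many, but not all, results that rest on it are also given without it. It was singled out by these values, so p-values without it follow a choice made on the data and are descriptions only. In bulk tissue, fewer cells of a type and less RNA per cell cannot be told apart.

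After CBDL, A/J jejunum had higher signals for a pair of fluid-phase inhibitors, C4bp and Cfi, for C8a of the membrane attack complex and for C4b, and none of the other 28 members passed the adjusted threshold. These 4 members of 32 stood against 0.757% of all genes called higher in the same comparison. No member was called lower, where 0.301% of all genes were. At an unadjusted p under 0.05, limma found 13 members higher and 0 lower, against 6.94% and 7.37% of all genes. For 15 members all A/J CBDL arrays lay above all A/J sham arrays, and for none did they all lie below (8.11% and 11.0% of all genes). The members' median difference was 0.30, against -0.03 over all genes. The count of 4 moved between 1 and 7 when single arrays were left out, and only C4bp was called under every alternative.

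In B6 jejunum limma called 0 members higher and 0 lower after CBDL, where 0.0401% and 0.0251% of all genes were called. The study's own list of changed genes does hold C4b and Clu as higher after CBDL in B6. At an unadjusted p under 0.05, 6 members were higher and 4 lower, against 4.14% and 4.68% of all genes. All CBDL arrays lay above all sham arrays for C4b, C4bp, Cfi, Clu and Vsig4, and below them for C1qa, C3ar1, Cd59a, Cfp and Itgax, that is 5 members each way (8.15% and 9.40% of all genes). The members' median difference was 0.03 and that of all genes -0.01. Without B6 sham replicate 3, limma called 4 members higher in B6 CBDL, C4bp, Cfi, Clu and Hc, and 0 lower (0.241% and 0.0201% of all genes). All 4 were more than 1 higher on that array than the mean of the other B6 sham arrays, so its omission raises their differences. With only probe sets of 1 gene name, C4b and Clu were called higher (adjusted p = 0.0215 and 0.0244), among 163 probe sets called in all. Array weights gave the same 2 calls (adjusted p = 0.0268 and 0.046), among 167.

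Averaged over both strains, 6 members were called higher after CBDL, against 1.45% of all genes, namely C4bp, Cfi, Clu, C4b, C8a and Vsig4. None was called lower (0.963% of all genes). The count was 3 to 9 with single arrays left out, and the call of C8a was lost under 13 of 19 alternatives. At an unadjusted p under 0.05, 13 were higher and 3 lower, against 7.52% and 7.85% of all genes. The median difference was 0.14 for the members and -0.02 for all genes. The plot of CBDL minus sham sets the strains side by side for each member.

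**Figure D1:**
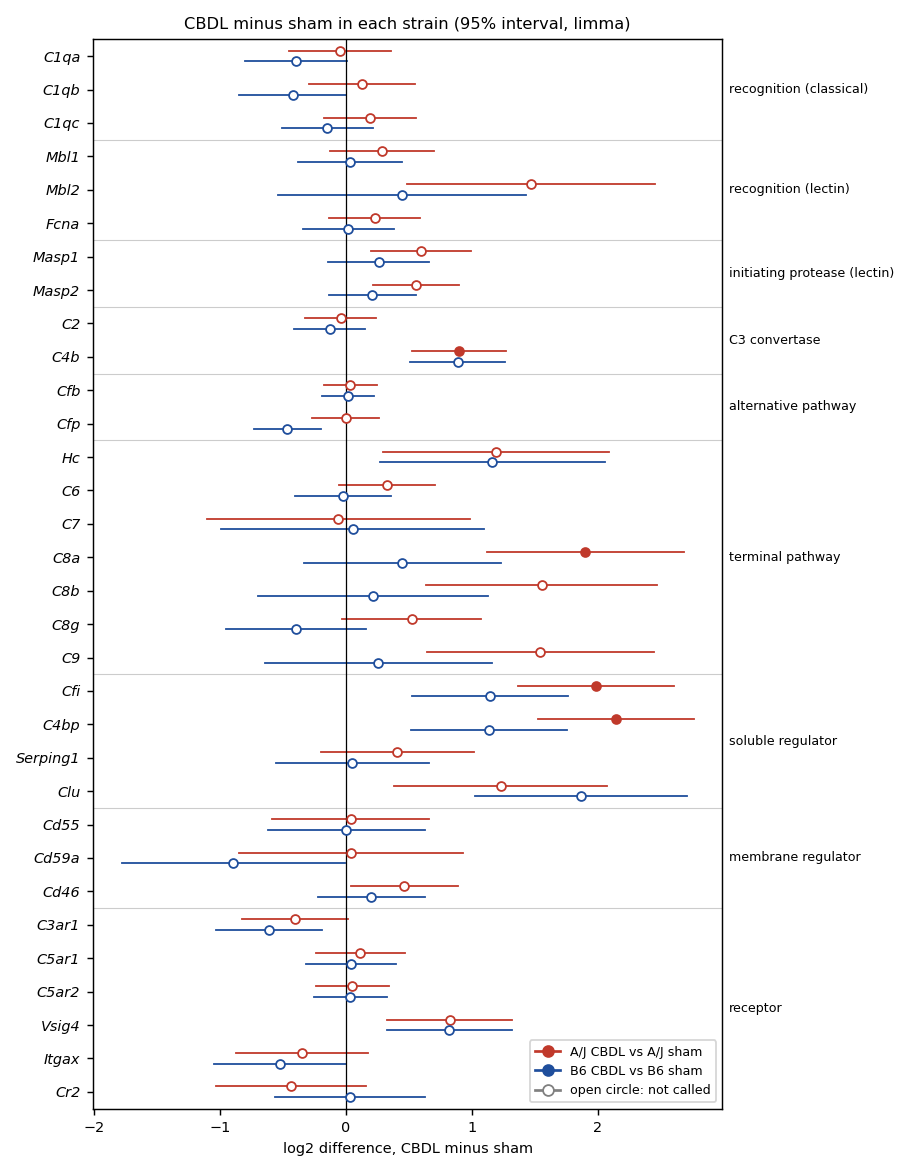
Log2 difference, CBDL minus sham, of the 32 measured complement genes (rows, grouped by role) in A/J (red) and B6 (blue), with the 95% interval from limma on 12 arrays; filled circles passed the adjusted threshold and open circles did not. The 4 filled circles are C4b, C8a, Cfi and C4bp in A/J, and every B6 circle is open.

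Promoter windows are shown for called members that RefSeq's table covered, C4bp, C8a and Vsig4, and for Hc. Hc was the only member lower on every A/J CBDL array than on every B6 CBDL array. It was not called there, and 11.4% of all genes were lower in the same way. C4b, Cfi and Clu had no entry. Each window is the 250 bases before the annotated start on GRCm38.p6, written 5′ to 3′ on the gene's strand, which was the minus strand for all 4 genes. The assembly is of the C57BL/6J strain, so A/J differences do not appear. Capitals mark matches to 4 motifs searched on both strands: TTCNNNGAA of STAT factors, TTGCNNAA of C/EBP factors, GTTAAT as a core of HNF1 sites, and CAAAGTCC of HNF4.
C4bp, chr1:130661619-130661868: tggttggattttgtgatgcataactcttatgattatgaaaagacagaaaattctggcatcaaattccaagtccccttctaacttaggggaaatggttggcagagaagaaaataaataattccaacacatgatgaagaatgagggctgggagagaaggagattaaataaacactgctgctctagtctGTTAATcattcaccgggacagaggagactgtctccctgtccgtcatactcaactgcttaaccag
C8a, chr4:104876399-104876648: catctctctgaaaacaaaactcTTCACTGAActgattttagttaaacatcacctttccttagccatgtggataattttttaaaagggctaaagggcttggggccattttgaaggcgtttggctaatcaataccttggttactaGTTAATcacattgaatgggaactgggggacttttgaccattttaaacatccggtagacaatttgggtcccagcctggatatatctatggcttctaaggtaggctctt
Hc, chr2:35061413-35061662: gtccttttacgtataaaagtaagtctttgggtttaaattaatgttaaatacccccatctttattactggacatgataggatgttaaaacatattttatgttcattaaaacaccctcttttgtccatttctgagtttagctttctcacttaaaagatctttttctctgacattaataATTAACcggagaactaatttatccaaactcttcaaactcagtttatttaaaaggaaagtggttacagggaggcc
Vsig4, chrX:96293439-96293688: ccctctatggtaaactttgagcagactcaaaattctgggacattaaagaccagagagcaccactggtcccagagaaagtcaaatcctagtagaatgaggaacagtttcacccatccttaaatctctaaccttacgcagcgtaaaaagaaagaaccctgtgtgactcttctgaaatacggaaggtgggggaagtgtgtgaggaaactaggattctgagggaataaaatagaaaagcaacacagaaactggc
The C4bp window held GTTAAT at -64 to -59 from the start, and Hc held the same letters on the other strand, ATTAAC, at -74 to -69. C8a held TTCACTGAA at -228 to -220 and GTTAAT at -107 to -102, which did not overlap. The Vsig4 window held no match. Over the 26 members with a window, GTTAAT was found in 7 (C4bp, C7, C8a, C8b, Cfp, Cr2 and Hc), against 6.43% of 32851 promoters of the same length. TTCNNNGAA was found in 3 members and 7.02% of all promoters, TTGCNNAA in 3 and 9.56%, and CAAAGTCC in 0 and 1.2%. These matches are descriptions of the letters in the windows and not of binding.

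Among soluble regulators, C4bp, which binds C4b and helps to break it down, had the greatest A/J difference. It had 7.16, 7.09 and 7.41 on the A/J CBDL arrays and 4.87, 5.12 and 5.23 on the A/J sham arrays. The B6 CBDL arrays had 7.28, 7.36 and 7.22, against 5.42, 6.15 and 6.89 on the B6 sham arrays. In both strains every CBDL array was above every sham array, and B6 sham replicate 3 came closest. The A/J difference was 2.14 (SE 0.28, 4.42-fold, adjusted p = 0.00717). In B6 it was 1.13 (95% interval 0.52 to 1.75, adjusted p = 0.22), and 1.50 without B6 sham replicate 3 (adjusted p = 0.0206). The C4bp promoter window carries GTTAAT, as do those of C7, C8a, C8b, Cfp, Cr2 and Hc. A link between these letters and the signals was not tested.

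Cfi encodes factor I, the protease that inactivates C3b and C4b with the help of cofactors such as C4bp. It had 7.50, 7.38 and 7.67 in A/J CBDL against 5.76, 5.20 and 5.63 in A/J sham, and the groups did not overlap. In B6 it had 7.58, 7.88 and 7.26 after CBDL against 5.92, 6.22 and 7.15 after sham operation, where the lowest CBDL and the highest sham array were nearly level. The A/J difference was 1.99 (SE 0.28, 3.97-fold, adjusted p = 0.00916, and 0.0567 without A/J sham replicate 2). The B6 difference was 1.14 (95% interval 0.52 to 1.76, adjusted p = 0.218), and 1.50 without B6 sham replicate 3 (adjusted p = 0.0264).

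Clu, clusterin, is a secreted chaperone that also binds the terminal complex. It had 8.15, 7.75 and 8.95 in A/J CBDL, against 6.72, 6.81 and 7.62 in A/J sham. The B6 CBDL arrays had 9.03, 8.75 and 8.52, against 6.42, 6.58 and 7.70 on the B6 sham arrays. No CBDL array overlapped with a sham array of its strain. Clu was called in the mean of both strains, at 1.55 (SE 0.27, adjusted p = 0.0181), but not in A/J alone (1.23, adjusted p = 0.178) or in B6 alone (1.87, adjusted p = 0.132). The call was lost without A/J sham replicate 2, B6 CBDL replicate 1, or B6 sham replicate 1 or 2 (adjusted p up to 0.0591). Without B6 sham replicate 3 the B6 difference was 2.27 (adjusted p = 0.0423). Clu had the greatest B6 difference of the 32 members. Serping1, the C1 inhibitor, lay between 7.74 and 9.21 on all 12 arrays with overlapping groups, at 0.41 in A/J and 0.05 in B6 (adjusted p = 0.543 and 0.989).

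**Figure D2:**
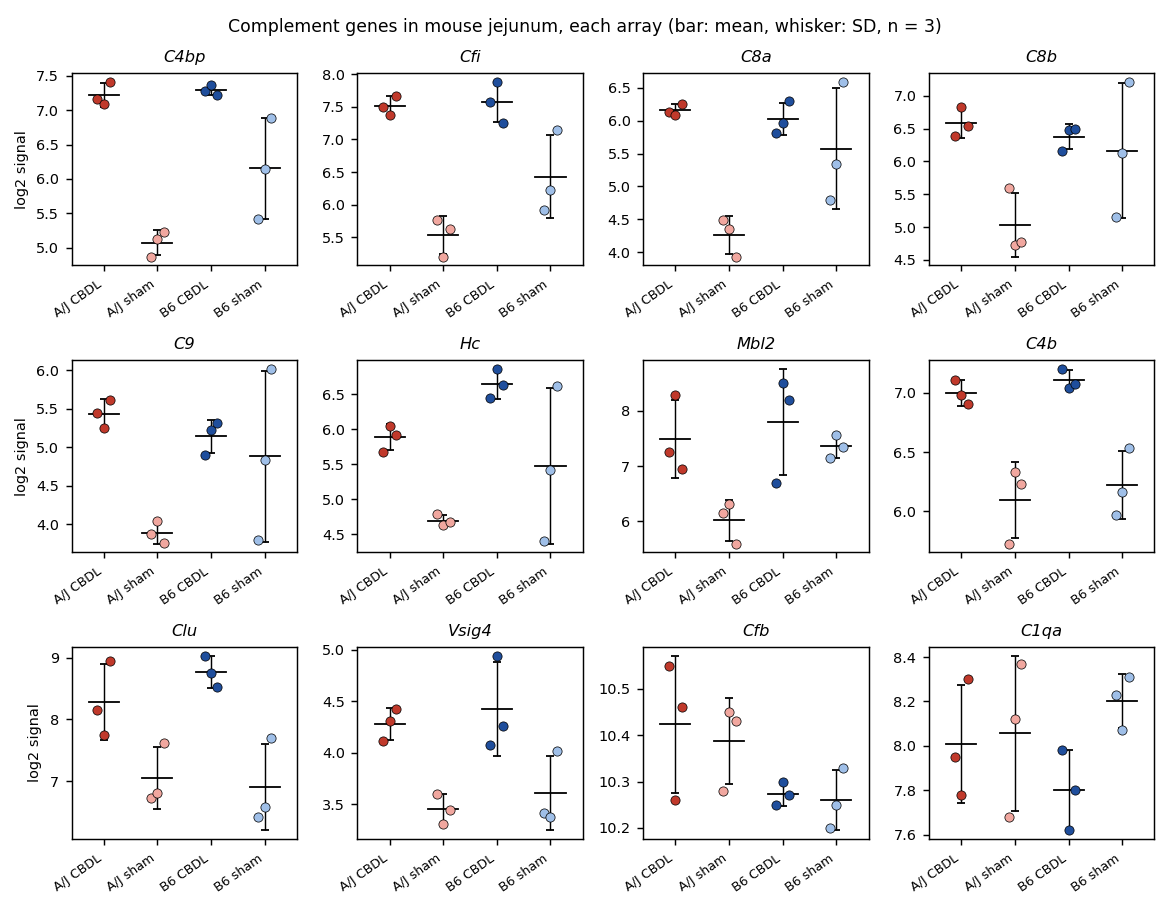
Log2 signal (y axis) on each array (points) of 12 complement genes in A/J CBDL, A/J sham, B6 CBDL and B6 sham jejunum, with group mean (bar) and SD (whisker, n = 3). C4bp and Cfi are low on the A/J sham arrays and spread widely on the B6 sham arrays, while Cfb stays between 10.20 and 10.55 in all groups.

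Of the 7 measured genes of the terminal pathway, C8a, which encodes the alpha chain of C8, was called. It had 6.14, 6.08 and 6.26 in A/J CBDL, against 4.49, 4.35 and 3.93 in A/J sham, with more than a 1 log2 unit gap between the groups. In B6 it had 5.81, 5.97 and 6.30 after CBDL, against 4.80, 5.34 and 6.59 after sham operation, where the highest value of all 12 arrays was B6 sham replicate 3. The A/J difference was 1.90 (SE 0.36, 3.74-fold, adjusted p = 0.0367), a call that was lost in 11 of 20 alternatives, 10 of them with 1 array left out (adjusted p up to 0.123), and kept when B6 sham replicate 1 or 3 was left out. The B6 difference was 0.45 (95% interval -0.34 to 1.23, adjusted p = 0.886), and 0.96 without B6 sham replicate 3 (adjusted p = 0.176).

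C8b, the beta chain of C8 and the neighbouring gene of C8a with no protein-coding gene between them, had 6.39, 6.83 and 6.54 in A/J CBDL, against 5.59, 4.73 and 4.78 in A/J sham. The B6 CBDL arrays had 6.16, 6.48 and 6.49, against 5.15, 6.13 and 7.21 on the B6 sham arrays. C9, which forms the pore, had 5.44, 5.25 and 5.62 in A/J CBDL, against 3.87, 4.04 and 3.76 in A/J sham. Both genes separated the A/J groups on every array, without passing the adjusted threshold (C8b 1.55, adjusted p = 0.124, and C9 1.54, adjusted p = 0.121). Without B6 sham replicate 3, limma's pooled spread was smaller (SE 0.23 in place of 0.41 for C9) and C8b and C9 were called in A/J (adjusted p = 0.0343 and 0.012). In B6, C9 had 4.90, 5.22 and 5.31 after CBDL and 3.80, 4.83 and 6.02 after sham operation. The B6 groups of both genes overlapped, with differences of 0.21 for C8b and 0.26 for C9 (adjusted p = 0.968 and 0.959). Leaving out B6 sham replicate 3 gave 0.74 and 0.83 (adjusted p = 0.657 and 0.441).

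Hc, the C5 gene, had 5.68, 6.05 and 5.92 in A/J CBDL, against 4.79, 4.63 and 4.67 in A/J sham. In B6 it had 6.44, 6.86 and 6.63 after CBDL, against 4.40, 5.42 and 6.62 after sham operation. The A/J groups were separate, and B6 sham replicate 3 lay within the B6 CBDL values. The differences were 1.19 in A/J (95% interval 0.29 to 2.09, adjusted p = 0.22) and 1.16 in B6 (95% interval 0.27 to 2.06, adjusted p = 0.461). Without B6 sham replicate 3 they were 1.19 in A/J and 1.73 in B6, both called (adjusted p = 0.0411 and 0.0318). The A/J difference was unchanged, and its SE fell from 0.41 to 0.23. Hc was 1.71 higher on that array than the mean of the other B6 sham arrays, so its omission raises the B6 difference. In A/J the probe set thus lay above every array's median after CBDL and below every array's median after sham operation. Detection over background was not tested. The strain's C5 gene is defective, and the array does not report the protein.

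C8g, the third chain of C8, had a difference of 0.52 in A/J and -0.39 in B6 (adjusted p = 0.383 and 0.824). C6 and C7, which bind C5b and anchor the growing complex, differed by 0.33 and -0.06 in A/J and by -0.02 and 0.05 in B6. The CBDL and sham arrays of both genes overlapped in each strain. C7 ranged from 4.37 to 6.28 over the 12 arrays, with 5.77 and 6.28 on replicate 1 of A/J CBDL and of B6 CBDL. Its 95% interval in A/J ran from -1.11 to 0.98, so a difference of close to 2-fold in either direction lay within it.

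C4b, the component that the classical and lectin pathways deposit on a surface, had 7.11, 6.98 and 6.90 in A/J CBDL, against 5.73, 6.33 and 6.23 in A/J sham. The B6 CBDL arrays had 7.20, 7.04 and 7.07, against 5.97, 6.16 and 6.53 on the B6 sham arrays. Neither strain's groups overlapped, and the rise was of like size, 0.90 in A/J (SE 0.17, 1.86-fold, adjusted p = 0.0391) and 0.89 in B6 (SE 0.17, adjusted p = 0.11). The mean of both strains was 0.89 (SE 0.12, adjusted p = 0.00562), a call that held under all 19 alternatives, whereas the A/J call was lost under 11 of 20, among them every array left out except A/J sham replicate 3 and B6 sham replicates 1 and 3 (adjusted p up to 0.128). C4b has a near-identical neighbour gene, C4a, and how the probe set divides between them was not tested. C2, the protease that pairs with C4b, lay between 5.27 and 5.90 on all arrays and differed by -0.04 in A/J and -0.13 in B6 (adjusted p = 0.914 and 0.922).

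In the lectin pathway Mbl2, a mannose-binding lectin that recognises microbial sugars, had 7.25, 8.28 and 6.94 in A/J CBDL, against 6.15, 6.31 and 5.60 in A/J sham. In B6 it had 6.70, 8.50 and 8.19 after CBDL, against 7.15, 7.57 and 7.35 after sham operation. The A/J groups were separate and the B6 groups overlapped. The differences were 1.47 in A/J (SE 0.45, adjusted p = 0.171) and 0.44 in B6 (adjusted p = 0.925). Mbl2 on B6 sham replicate 3 was -0.01 from the mean of the other B6 sham arrays, whereas Hc, C8a, C8b and C9 were 1.52 to 1.71 above it.

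The proteases that the lectins carry, Masp1 and Masp2, were 0.60 and 0.56 higher in A/J CBDL, with no overlap, and missed the adjusted threshold (adjusted p = 0.173 and 0.141). In B6 their differences were 0.26 and 0.21 (adjusted p = 0.854 and 0.87). Mbl1, the other mannose-binding lectin, lay between 3.75 and 4.60 on the 12 arrays, and Fcna, ficolin A, between 5.65 and 6.34. Their differences were 0.28 and 0.23 in A/J, and 0.03 and 0.02 in B6, none of them called.

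The C1q genes, which encode the 3 chains of the recognition protein of the classical pathway and lie side by side in the genome, were not called. C1qa had 7.95, 7.78 and 8.30 in A/J CBDL against 7.68, 8.12 and 8.37 in A/J sham. The B6 CBDL arrays had 7.98, 7.62 and 7.80, against 8.23, 8.07 and 8.31 on the B6 sham arrays. Only the B6 groups were separate, with CBDL below sham. The differences in A/J were -0.05, 0.13 and 0.19 for C1qa, C1qb and C1qc, and those in B6 were -0.40, -0.42 and -0.15 (adjusted p from 0.655 to 0.935). Macrophage markers, 12 measured, had mean signals of 6.26 to 6.50 in A/J CBDL, 6.07 to 6.51 in A/J sham, 6.26 to 6.32 in B6 CBDL and 6.35 to 6.42 in B6 sham. In B6 the CBDL range of these markers lay below the sham range, as C1qa did, and its part in the C1q values was not tested.

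Of the alternative pathway, Cfb, factor B, had 10.55, 10.26 and 10.46 in A/J CBDL against 10.28, 10.45 and 10.43 in A/J sham, and 10.25, 10.30 and 10.27 in B6 CBDL against 10.20, 10.25 and 10.33 in B6 sham. The groups overlapped in both strains. The CBDL minus sham interval was narrow, at 0.04 in A/J (95% interval -0.17 to 0.24) and 0.01 in B6 (-0.19 to 0.22). Cfp, properdin, which stabilises the alternative convertase, had 5.89, 5.72 and 5.65 in B6 CBDL against 6.13, 6.45 and 6.07 in B6 sham. Every B6 CBDL array was lower, and the difference of -0.46 (SE 0.12) did not pass the threshold (adjusted p = 0.259). In A/J it was -0.00 (95% interval -0.27 to 0.26).

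Among receptors, Vsig4, through which tissue macrophages bind C3 fragments, was called in the mean of both strains at 0.82 (SE 0.16, 1.77-fold, adjusted p = 0.0301). It had 4.11, 4.31 and 4.42 in A/J CBDL against 3.60, 3.31 and 3.45 in A/J sham, and 4.08, 4.94 and 4.26 in B6 CBDL against 3.42, 3.38 and 4.02 in B6 sham. No CBDL array overlapped with a sham array of the same strain, although B6 CBDL replicate 1 and B6 sham replicate 3 were nearly level. These signals were below every array's median, and the call was lost in 9 of 18 alternatives (adjusted p up to 0.0869), among them every array left out except A/J sham replicate 1, B6 CBDL replicates 1 and 2 and B6 sham replicate 3. Each strain gave 0.82 alone (adjusted p = 0.132 in A/J and 0.294 in B6).

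C3ar1, the receptor for the anaphylatoxin C3a, had 5.79, 5.62 and 5.89 in A/J CBDL against 5.86, 6.11 and 6.54 in A/J sham. In B6 it had 6.12, 5.92 and 5.64 after CBDL against 6.38, 6.80 and 6.32 after sham operation. The B6 groups were separate and the A/J groups overlapped slightly. The mean of both strains was -0.51 (SE 0.14, adjusted p = 0.106), and it was called lower in CBDL with only probe sets of 1 gene name (adjusted p = 0.0390) and with array weights (adjusted p = 0.0432). Itgax, the alpha chain of complement receptor 4 on dendritic cells and macrophages, differed by -0.35 in A/J and -0.52 in B6 (adjusted p = 0.545 and 0.652). The C5a receptors C5ar1 and C5ar2 differed by at most 0.12 in either strain, and Cr2, the receptor of B cells and follicular dendritic cells, by -0.44 in A/J and 0.03 in B6. B cell markers, 10 measured, had mean signals of 4.31 to 4.47 in A/J CBDL and 4.32 to 5.04 in A/J sham, with Cr2 at 4.51 on A/J sham replicate 3 and 3.50 or less on the other A/J sham arrays.

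The membrane regulators, which shield host cells, showed no call. Cd59a, an inhibitor of pore assembly, had 7.53, 6.31 and 6.01 in A/J CBDL against 5.82, 6.91 and 7.00 in A/J sham. The B6 CBDL arrays had 5.17, 5.16 and 5.83, against 5.99, 6.39 and 6.46 on the B6 sham arrays. The B6 groups were separate, with a difference of -0.90 (95% interval -1.78 to -0.01, adjusted p = 0.649), and the A/J groups overlapped, at 0.04 (95% interval -0.85 to 0.93, adjusted p = 0.974). Cd55, which speeds the decay of convertases, differed by 0.04 in A/J and 0.00 in B6. Cd46, a cofactor for factor I that in mice is known mainly from the testis, was 0.46 higher in A/J CBDL and 0.20 higher in B6 CBDL (adjusted p = 0.313 and 0.918). Cd55 and Cd59a have close paralogs, Cd55b and Cd59b, and cross-hybridisation was not tested.

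**Figure D3:**
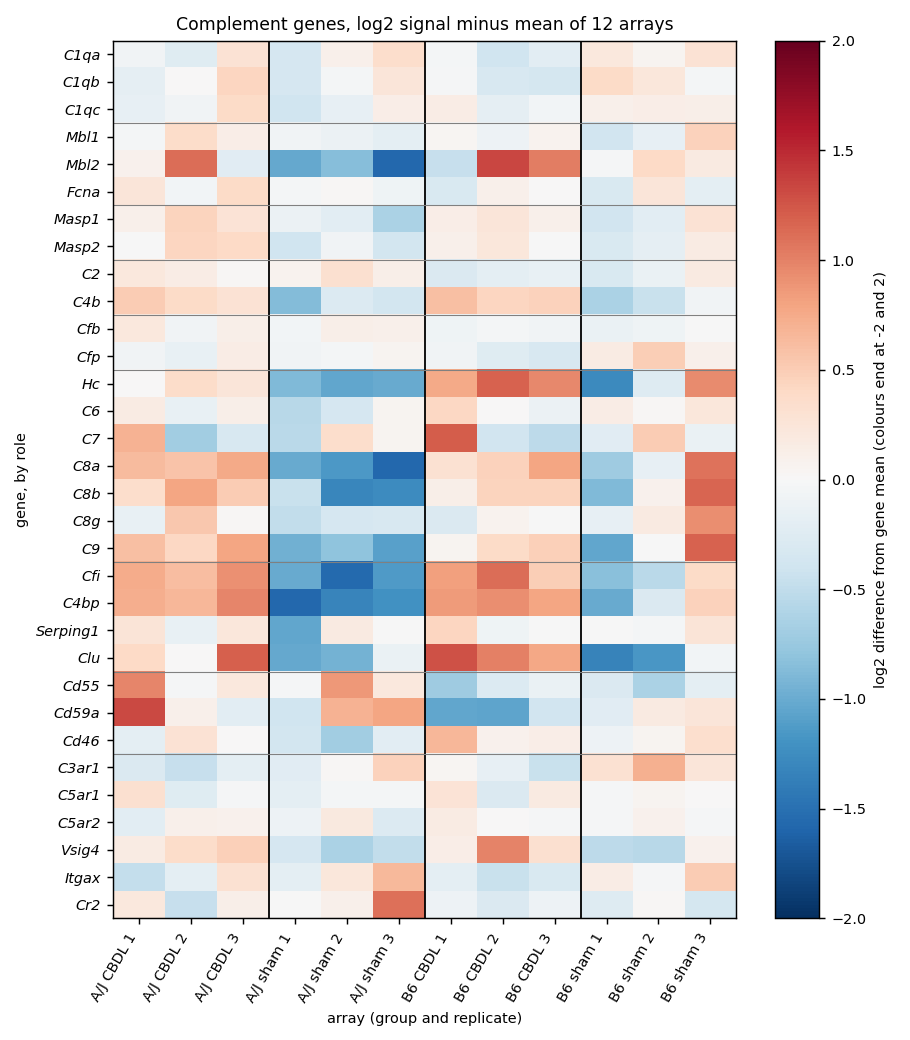
Log2 signal minus the gene's mean over the 12 arrays (colour scale, -2 to 2) for each complement gene (rows, by role) on each array (columns, by group and replicate). The terminal genes Hc, C8a, C8b and C9 and the regulators Cfi and C4bp are blue on the A/J sham arrays, red on the A/J CBDL and B6 CBDL arrays apart from values near the mean, and red on B6 sham replicate 3.

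The strains were compared after each operation. These comparisons use the same 12 arrays as those of CBDL and sham, and are therefore not separate evidence. In sham mice limma called 0 members higher and 0 lower in A/J than in B6 (0.802% and 0.968% of all genes were). At an unadjusted p under 0.05, 1 member was higher and 10 lower, against 7.60% and 7.36% of all genes. All A/J sham arrays lay above all B6 sham arrays for Cd55 and below them for 8 members (11.2% and 8.67% of all genes): C4bp, C5ar1, C8a, C8g, Cd46, Cfi, Cfp and Mbl2. The greatest of these differences were -1.33 for Mbl2, -1.32 for C8a and -1.08 for C4bp (adjusted p = 0.184, 0.107 and 0.0937). The members' median was -0.20 and that of all genes 0.04. Without B6 sham replicate 3, 2 members were higher (C2 and Cd55) and 5 lower (C4bp, C8a, Cfi, Cfp and Mbl2) at an unadjusted p under 0.05, against 5.31% and 5.44% of all genes. The differences were then -1.34 for Mbl2, -0.81 for C8a, -0.71 for C4bp, -0.61 for C8b and -0.43 for C9 (adjusted p from 0.147 to 0.599). With B6 sham replicate 1 left out in its place, limma called 4 members lower in A/J sham, among 478 probe sets called. They were C8a at -1.71, C8b at -1.64, C9 at -1.54 and C4bp at -1.45 (adjusted p from 0.00737 to 0.0449).

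After CBDL, limma again called 0 members higher and 0 lower in A/J than in B6 (0.712% and 1.20% of all genes). At an unadjusted p under 0.05, C2, Cd55 and Cd59a were higher and no member was lower, that is 3 and 0 members against 7.03% and 8.21% of all genes. The same 3 genes lay above B6 on every array, and Hc alone lay below, against 12.6% and 11.4% of all genes. Cd59a had 7.53, 6.31 and 6.01 in A/J CBDL and 5.17, 5.16 and 5.83 in B6 CBDL, a difference of 1.23 (95% interval 0.34 to 2.12, adjusted p = 0.186). Cd55 had 8.14, 7.15 and 7.38 in A/J CBDL against 6.45, 6.90 and 7.04 in B6 CBDL, and 7.15, 8.03 and 7.38 in A/J sham against 6.87, 6.54 and 6.97 in B6 sham. Its A/J arrays were above its B6 arrays after both operations, by 0.76 after CBDL and 0.73 after sham operation (adjusted p = 0.251 both times). The A/J minus B6 difference of Hc was -0.76 after CBDL and -0.79 after sham operation (adjusted p = 0.457 and 0.39). Its sham difference without B6 sham replicate 3 was -0.22 (adjusted p = 0.818). Sequence differences between the strains under the probes were not tested. The plot of A/J minus B6, drawn from all arrays, shows C8a, C8b and C9 to the left of 0 after sham operation and slightly to the right of it after CBDL, with Hc to the left after both.

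**Figure D4:**
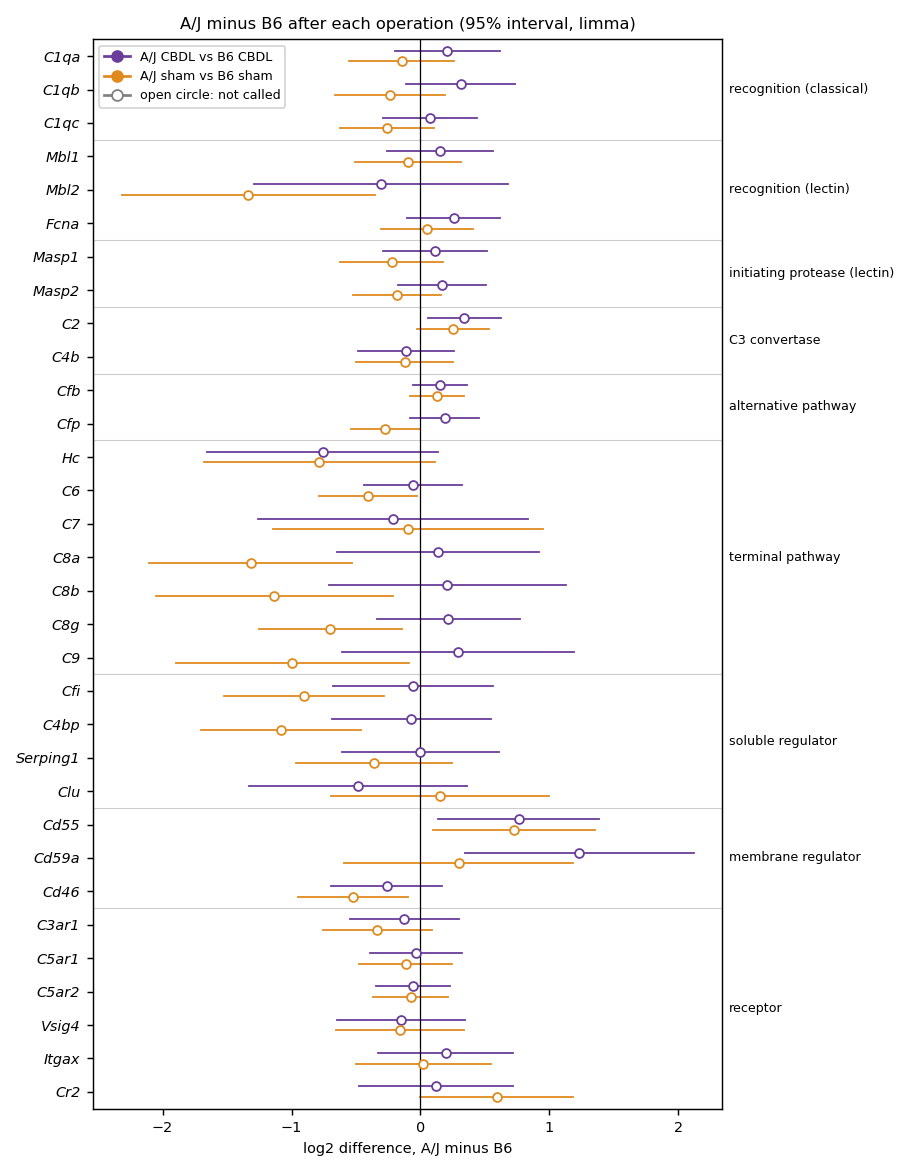
Log2 difference, A/J minus B6, of each complement gene (rows, by role) after CBDL (purple) and after sham operation (orange), with the 95% interval from limma; open circles were not called. No circle is filled, and C8a, C8b and C9 lie at -1.32, -1.13 and -0.99 after sham operation and at 0.14, 0.21 and 0.29 after CBDL.

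Whether CBDL changed a gene more in A/J than in B6 was tested with the interaction, the A/J difference minus the B6 difference. Limma called 0 members in either direction (0.00502% of all genes each way, higher and lower). At an unadjusted p under 0.05, 6 members had a greater value in A/J, namely C4bp, C8a, C8b, C8g, C9 and Cfp, and 0 a smaller one, against 3.19% and 3.36% of all genes. The greatest interactions were 1.45 for C8a (95% interval 0.34 to 2.56, adjusted p = 0.647) and 1.34 for C8b (0.05 to 2.64, adjusted p = 0.717). For C4b it was 0.01 (-0.52 to 0.54) and for Vsig4 0.01 (-0.70 to 0.71). Clu ran the other way, at -0.64 (-1.83 to 0.56). With B6 sham replicate 3 left out, 5 members had a greater value in A/J at an unadjusted p under 0.05, namely C1qb, C4bp, C8a, C8g and Cfp, and 0 a smaller one, against 2.84% and 2.77% of all genes. The interaction was then 0.95 for C8a, 0.82 for C8b and 0.72 for C9 (adjusted p = 0.684, 0.822 and 0.813). So a call for C4bp, Cfi, C8a and C4b in A/J and none in B6 was not shown to be a difference between the strains.

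Several members that separated the A/J groups were also high on B6 sham replicate 3. Against the mean of the other B6 sham arrays, that array was higher by 1.71 for Hc, 1.70 for C9, 1.57 for C8b, 1.52 for C8a, 1.20 for Clu, 1.11 for C4bp and 1.08 for Cfi. These 7 members exceeded 1, as did 18 of 22 hepatocyte markers and 0.642% of all genes. The median was 0.33 over the members, 1.70 over the hepatocyte markers and -0.03 over all genes. C4b was 0.46 higher there, Vsig4 0.62 and Cfb 0.11. In the CBDL comparisons, 17 of 22 hepatocyte markers were called higher in A/J (median 3.48) and 0 in B6 (median 1.13, 14 at an unadjusted p under 0.05). Of all genes, 0.757% were called higher in A/J and 0.0401% in B6 (4.14% at an unadjusted p under 0.05). In sham mice 9 of 22 hepatocyte markers were called lower in A/J (median -1.77), against 0.968% of all genes. The part of hepatocyte RNA in the values of C4bp, Cfi, Hc, C8a, C8b, C9, Clu, C4b, Vsig4 and the other members was not tested. For 5 members all B6 CBDL arrays lay above all B6 sham arrays (8.15% of all genes), and by that choice above B6 sham replicate 3. They were C4b (7.04 to 7.20 against 6.53), Clu (8.52 to 9.03 against 7.70), C4bp (7.22 to 7.36 against 6.89), Cfi (7.26 to 7.88 against 7.15) and Vsig4 (4.08 to 4.94 against 4.02). The B6 CBDL arrays were below that array for C8a (5.81 to 6.30 against 6.59), C8b (6.16 to 6.49 against 7.21) and C9 (4.90 to 5.31 against 6.02). For Hc they lay around it (6.44 to 6.86 against 6.62). Mean hepatocyte markers were at 8.54 to 8.85 against 8.55.

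**Figure D5:**
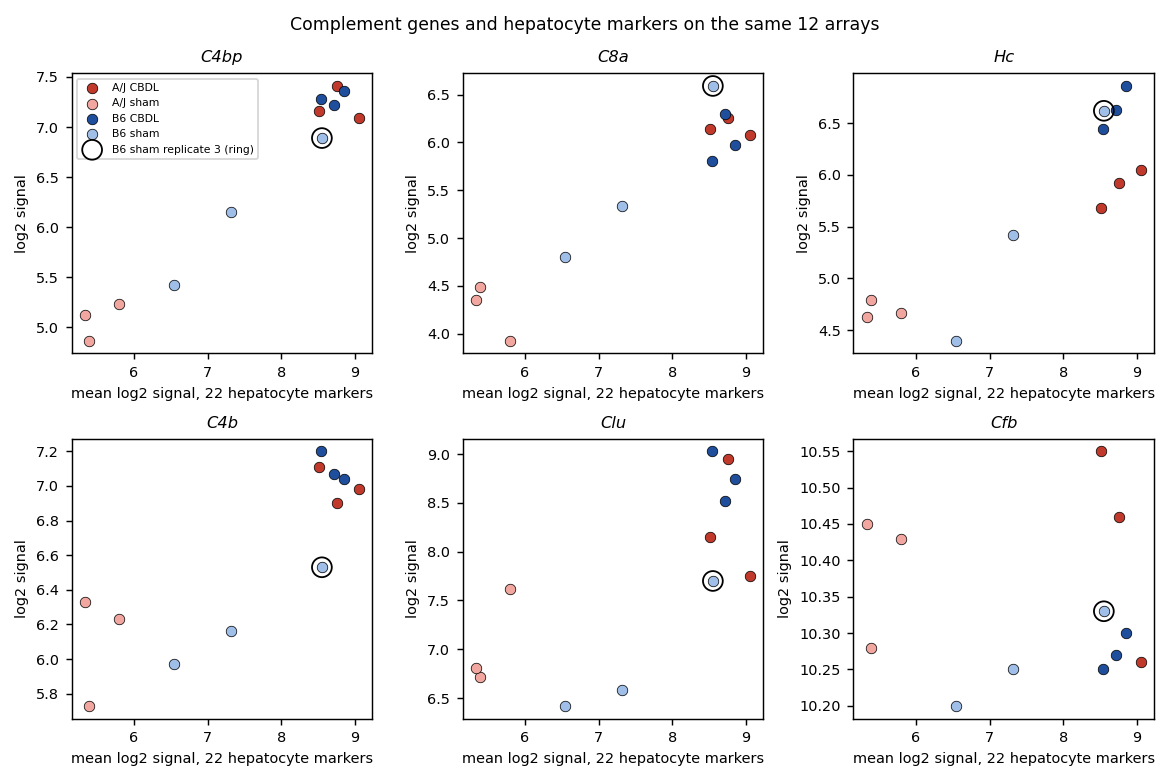
Log2 signal (y axis) of 6 complement genes against the mean log2 signal of 22 hepatocyte markers (x axis) on the 12 arrays, coloured by group, with B6 sham replicate 3 ringed. The ringed array sits above every CBDL array for C8a, at 6.59, among the B6 CBDL arrays for Hc, at 6.62, and below every CBDL array for C4bp, C4b and Clu, at 6.89, 6.53 and 7.70.

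Of 34 other names of the complement pathway, 25 were measured and 3 were called higher in A/J CBDL, with 0 lower, against 0.757% and 0.301% of all genes: Vtn, which encodes vitronectin and blocks membrane insertion of the terminal complex, and the pentraxins Crp and Apcs, which can bind C1q. Vtn had 8.48, 8.92 and 8.97 in A/J CBDL against 5.49, 5.85 and 5.52 in A/J sham (difference 3.17, adjusted p = 0.00916). Crp differed by 2.32 (adjusted p = 0.0141). Apcs had 6.46, 7.75 and 7.04 in A/J CBDL against 3.70, 4.15 and 3.77 in A/J sham (difference 3.20, adjusted p = 0.000704). All 3 separated the A/J groups by more than 1 log2 unit on every array. In B6 limma called 0 of the 25 (0.0401% of all genes were called higher and 0.0251% lower), with 3 higher and 1 lower at an unadjusted p under 0.05 (4.14% and 4.68% of all genes). Vtn and Crp were high on B6 sham replicate 3, at 8.45 and 6.57, whereas Apcs was not, at 4.27 against 5.88, 6.09 and 6.01 in B6 CBDL. The B6 difference of Apcs was 1.64 (SE 0.26, adjusted p = 0.0592). The median over the 25 was 0.17 in A/J and 0.02 in B6.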

How the data were processed

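Jejunal total RNA of 12 samples was hybridised to Affymetrix arrays. The authors deposited 1 table of log2 signals per probe set, normalized over all arrays. The labels name RMA in Affymetrix Expression Console, whereas the study's methods name GCRMA and another array design, with versions not given in the sources used here. RMA-type summaries compress low signals, so small values understate changes. Every value column was mapped to a sample (0 unused). Of 35556 probe sets, 21789 had 1 gene name, 1621 several and 12146 none, by GEO's platform annotation. A gene was read from its brightest probe set with 1 name. All listed members were named, and of other genes only called ones of a second complement list. limma 3.58.1 in R 4.3.3 fitted 1 mean per group over all 12 arrays (lmFit, eBayes), with Benjamini-Hochberg adjustment over all probe sets, and was tested on simulated data. The shares of all genes are over 19938 genes. The members, gene lists and motifs were chosen with earlier results of these data known. Alternatives were fewer arrays, a filter on the dimmest 30% of probe sets, probe sets with 1 name, other normalizations, a trended robust prior, array weights, the replicate number as a block, and each array left out. The number of arrays (3 per group) limits the precision stated here, as does the spread between them, to which B6 sham replicate 3 added. Whether each array came from its own mouse is not stated. Promoters and gene order came from RefSeq tables (GRCm38.p6), matched by symbol, which held promoters for 26 of 34 members.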

Additional observations from a re-analysis of the deposited data

How the results depend on the processing

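No called member changed sign under any alternative. The 4 members called in A/J CBDL against A/J sham became 7 with array weights and 2 with the replicate block. Probe sets called in all were 291 in the main fit, 1299 with array weights and 190 with the block. With 1 array left out the members called were 1 to 7, namely 1 without A/J sham replicate 2 (90 probe sets called in all), 7 without B6 sham replicate 3 (349), and 2 without any of A/J CBDL replicates 1, 2 and 3, A/J sham replicate 1, B6 CBDL replicates 1, 2 and 3 or B6 sham replicate 2. The 0 in B6 became 2 with only probe sets of 1 gene name, where fewer probe sets are adjusted for, and 2 with array weights, and 0 to 4 with 1 array left out (4 without B6 sham replicate 3). Probe sets called in B6 rose from 19 in the main fit to 163, 167 and 67 in these. The 6 in the mean of both strains became 8 with probe sets of 1 gene name and 8 with array weights, 7 higher and 1 lower (C3ar1) each time, and 3 to 9 with 1 array left out, with 3 without A/J sham replicate 2 or B6 sham replicate 1 or 2, and 9 without B6 sham replicate 3. Probe sets called in that mean were 617 in the main fit, 905 with 1 gene name, 1510 with array weights and 484 without B6 sham replicate 3. In sham mice, A/J against B6, the 0 became 2 (lower) with probe sets of 1 gene name, 1 (higher) with array weights, and 0 to 4 with 1 array left out, with 4 lower without B6 sham replicate 1. Probe sets called there were 665 in the main fit, and 577, 3044 and 478 in these alternatives. A/J against B6 after CBDL and the interaction stayed at 0 under every alternative. Other causes were not tested. C4bp in A/J, and C4bp, Cfi and C4b in the mean of both strains, were called throughout. Clu in that mean was lost under 4 of 19 alternatives and C8a under 13, kept among single arrays only without B6 sham replicate 3. The filter on dim probe sets left 29 members. Whether the replicate numbers pair the arrays was not settled. Correlations of same-numbered deviations ran from -0.312 to 0.358, with 2 of 18 over 0.1. With 3 arrays per group these cannot exclude pairing. The replicate block left 4 members called in the mean of both strains, among 428 probe sets called, and 0 in the other comparisons but A/J.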

Other observations

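A list of 12 acute phase genes that are not complement was set beside the members. Its mean signal was 7.10 to 7.92 in A/J CBDL, 4.80 to 4.85 in A/J sham, 7.19 to 7.96 in B6 CBDL and 5.05 to 6.20 in B6 sham, so that neither strain's groups overlapped. By limma, 8 of 12 were called higher after CBDL in A/J (median difference 2.80), 2 in B6 (median 2.01) and 10 in the mean of both strains (median 2.38), with none lower. Of all genes, 0.757%, 0.0401% and 1.45% were called higher in these comparisons, and 0.301%, 0.0251% and 0.963% lower. The complement members' medians in the same comparisons were 0.30, 0.03 and 0.14. The list shares 1 gene with the hepatocyte markers. Stromal markers, 10 measured, had mean signals of 7.13 to 7.65 in A/J CBDL, 7.12 to 7.70 in A/J sham, 7.11 to 7.46 in B6 CBDL and 7.28 to 7.65 in B6 sham.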
